A study of Mus musculus with 57 samples.

Results

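The neighbours of Shank2 on mouse chromosome 7 described here are Cttn, Gm26793, Bc1, Ccnd1, Tpcn2, Mrgprf and Cd81. These 7 genes, of 16659 genes tested and 51456 gene identifiers in the table, lie within 1 Mb of an end of Shank2 (GRCm38). They were selected on their difference between mice heterozygous for Shank2 (HT) and wild-type mice (WT). Their HT-to-WT values are therefore a description with no test. The effects of drug and sex were not themselves used in the choice, and those were tested. They come from the same libraries as the differences that were used, so the tests are not independent of the choice.

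The 57 RNA-seq libraries came from prefrontal cortex of mice of the C57BL/6N strain, taken on postnatal day 25. The pups had been exposed to vehicle, fluoxetine (a serotonin reuptake inhibitor used as an antidepressant) or lithium (a mood stabilizer) through the mother's milk from postnatal day 3 to day 24. The 30 HT libraries were 10 for each drug, 5 female and 5 male. The 27 WT libraries were 8 for vehicle (4 female and 4 male), 10 for fluoxetine (5 and 5) and 9 for lithium (4 female and 5 male). The labels give no description of the Shank2 allele, of the litters or of the dose, and name no other allele. Pups that shared a dam cannot be told from the labels, so p-values measure the spread between these libraries.

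Values are normalized estimated counts, a signal per gene and library in which the libraries' totals ran from 30.4 M to 33.2 M. The number of reads behind a value is unknown. Between 21509 and 23264 genes were above 0 in a library. The libraries WT vehicle male 2 and HT fluoxetine male 3 stood apart most, with median correlations to the others of 0.968 and 0.970, against a median of 0.985 over all libraries. Slc17a7, the vesicular glutamate transporter that marks cortical excitatory neurons, ran from 44452 to 68522 over the 57 libraries. Shank2 itself, a postsynaptic scaffold of excitatory synapses, checks the genotype labels. It ran from 3877 to 5006 in the HT libraries and from 6762 to 11791 in the WT libraries, so no library went against its label, and the HT mean was 44.4% of the WT mean.

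SHANK proteins link glutamate receptors to the actin cytoskeleton of dendritic spines, in part through cortactin, the product of the nearest gene, Cttn. Bc1 is a short noncoding RNA made by RNA polymerase III in rodent neurons, carried into dendrites and known as a repressor of translation. Ccnd1 encodes cyclin D1, which activates Cdk4 and Cdk6 and drives cells out of G1. Tpcn2 encodes a cation channel of endosomes and lysosomes, Mrgprf a receptor of the Mas-related family, and Cd81 a tetraspanin of the plasma membrane. Gm26793 is annotated as a noncoding RNA antisense to Fgf15, the mouse orthologue of the growth factor FGF19.

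On the GRCm38 map, with GENCODE gene models, Cd81 was the only one of the 7 genes on the centromeric side of Shank2. It lies on the plus strand at chr7:143052739-143067934, 934 kb from Shank2 (chr7:144001928-144424494, plus strand). Cttn lies 11.2 kb beyond the telomeric end of Shank2 at chr7:144435733-144471009 on the minus strand. Gm26793, Bc1 and Ccnd1 form a cluster about 0.5 Mb away. Gm26793 is at chr7:144894560-144897461 on the minus strand, 470 kb from Shank2. Bc1 is at chr7:144914470-144914637 on the plus strand, at 490 kb. Ccnd1 is at chr7:144929931-144939925 on the minus strand, at 505 kb. Farther out, Tpcn2 lies at chr7:145186524-145284011 on the minus strand (762 kb) and Mrgprf at chr7:145300828-145309557 on the plus strand (876 kb).

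The 2 sequences carry features that bear on how these genes were measured. Bc1 is shown because it is a single exon of 168 bases whose run of A residues lies inside the transcript, while the libraries were made with a kit for polyadenylated RNA. The capitals mark the longest run, 23 A at bases 77 to 99, which is followed by another 69 bases. In all, 70 of the 168 bases (41.7%) were A. The transcript is from the GENCODE models.
Bc1 transcript: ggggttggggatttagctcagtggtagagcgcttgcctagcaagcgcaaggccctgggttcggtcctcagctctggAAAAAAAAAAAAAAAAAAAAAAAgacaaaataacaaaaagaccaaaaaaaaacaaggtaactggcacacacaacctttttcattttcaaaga
The second sequence is a stretch of 104 bases that an exon of Gm26793 and an exon of Fgf15 share on opposite strands (chr7:144897116-144897219). It is printed on the Gm26793 strand, and all 104 bases are coding sequence in Fgf15.
Gm26793 stretch: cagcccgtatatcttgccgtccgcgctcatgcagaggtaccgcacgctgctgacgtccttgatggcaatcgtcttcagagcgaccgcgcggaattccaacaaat
Exons of the pair shared 761 bases in all, which is 27.9% of the exon bases of Gm26793 and 24.9% of those of Fgf15. Exons of Ccnd1 and of LTO1, a gene on the opposite strand, likewise shared 1100 bases (23.4% of Ccnd1). The library kit keeps the strand, but whether the counting used it is not known here. Without that, reads of a gene and its antisense partner cannot be told apart.

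Gm26793 differed most between the genotypes. In the vehicle libraries it had a lowest, median and highest value of 58.5, 66.9 and 95.9 in HT, against 0, 2.90 and 6.66 in WT. Under fluoxetine these were 46.8, 66.3 and 100.2 in HT against 0, 1.95 and 4.07 in WT. Under lithium they were 37.5, 63.5 and 80.2 in HT against 0, 2.79 and 5.45 in WT. Every HT library was above every WT library, and 5 of the 27 WT libraries were listed at 0. The ratio of the HT mean (67.4 ± 13.4, SD, n = 30) to the WT mean (2.41 ± 1.89, SD, n = 27) was 27.9. On the log2(value + 1) scale used for all fits, the difference was 4.54 ± 0.18 (SE) over all treatments, the largest of the 16659 genes tested. Of all genes tested, Gm26793 and Shank2 were the 2 (0.012%) whose HT and WT values did not overlap over all libraries. The size on the log scale depended on the constant added, from 3.30 with 5 added to 5.52 with 0.1 added.

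Fgf15, whose exons Gm26793 overlaps, was too low for the fit, which took genes whose mean was 10 or more, and was looked at after the values were seen. It ran from 3.77 to 38.8 in the HT libraries with a median of 8.45, and from 0 to 1.82 in the WT libraries, of which 20 of 27 were listed at 0. Both genes of the antisense pair were thus higher in every HT library than in any WT library. How many genes as low as Fgf15 separate the genotypes in this way was not counted. The highest Fgf15 value and the highest Gm26793 value (100.2) were both in HT fluoxetine male 3. Over the 30 HT libraries the deviations of the pair from their group means had a Pearson r of 0.27, a description over libraries that share both genes' reads if strand was not used.

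**Figure D1:**
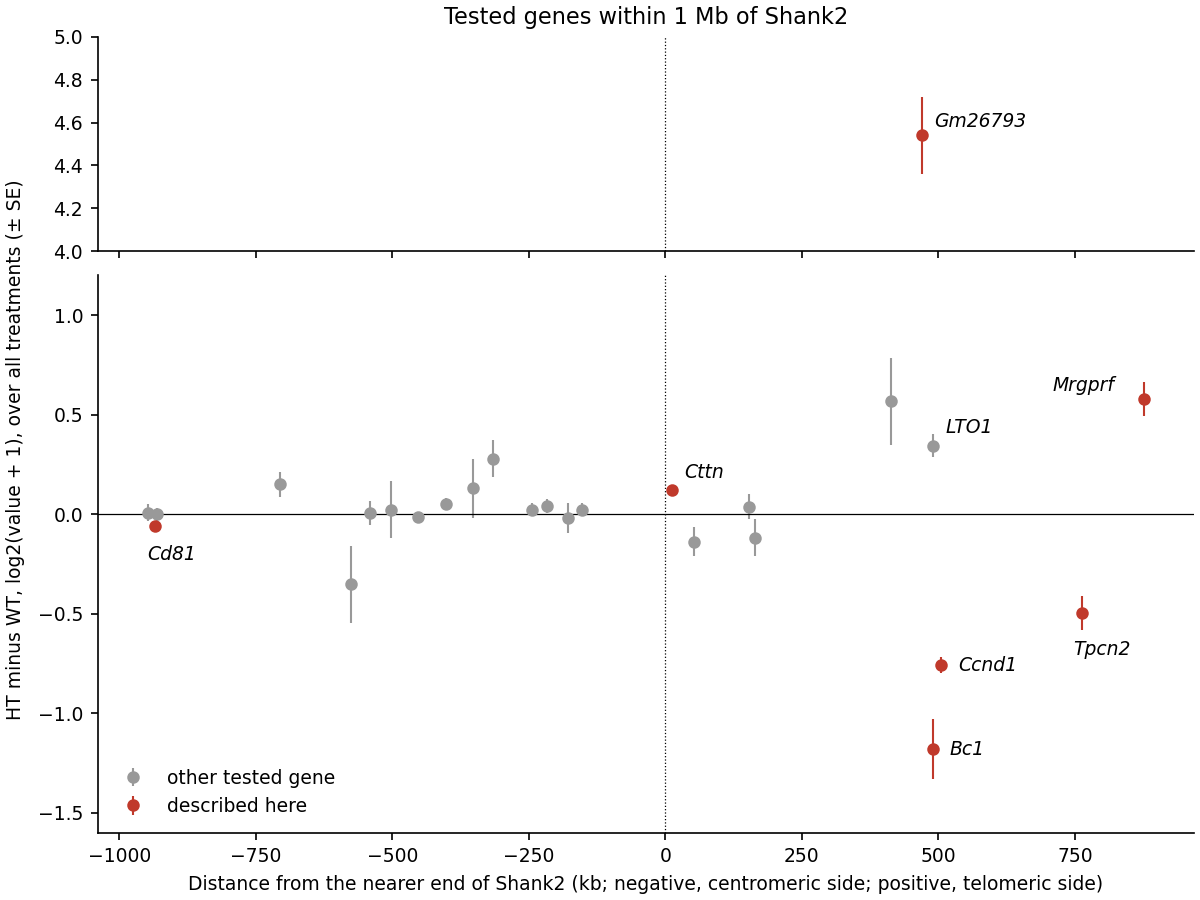
Difference between HT and WT over all treatments on the log2(value + 1) scale (vertical axis, ± SE, broken between 1.2 and 4) for the 26 genes tested within 1 Mb of Shank2, against distance from the nearer end of Shank2 in kb (horizontal axis). Red points are the 7 genes described and grey points the other 19; the 6 genes on the telomeric side span from -1.18 (Bc1) to 4.54 (Gm26793).

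Bc1 was lower in HT. Under vehicle its lowest, median and highest values were 582, 1959 and 4669 in HT and 3437, 5161 and 12067 in WT. Under fluoxetine they were 1249, 2109 and 4498 in HT and 3456, 5025 and 7165 in WT. Under lithium they were 1859, 3468 and 4080 in HT and 2288, 5767 and 9045 in WT. The ranges overlapped in every arm: 8, 9 and 1 of the 10 HT libraries under vehicle, fluoxetine and lithium were below all WT libraries of their arm. The HT mean was 34.8%, 45.5% and 58.0% of the WT mean in the same order, and the log2 differences were -1.63 ± 0.27, -1.17 ± 0.26 and -0.74 ± 0.26 (SE). Bc1, which was chosen on this kind of difference, had the sixth largest absolute difference of all genes tested over all treatments (-1.18 ± 0.15).

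Libraries of 1 group differed more in Bc1 than in most genes. Its deviations from the group means had an SD of 0.57 on the log2 scale, against a median of 0.11 for the 1436 genes of like level, and 99.9% of those genes had a smaller SD. The gene whose deviations were most like those of Bc1 was mt-Atp8 (r = 0.79 over 57 libraries), a short mitochondrial transcript that encodes a subunit of ATP synthase. It was followed by Gm28438 (0.78) and Smim10l1 (0.70). These correlations are across libraries that share preparation and depth. Under other filters, scalings and fits, the genotype difference of Bc1 over all treatments ran from -1.19 to -1.17. With 1 library left out it ran from -1.24 to -1.10. One of the fits had the libraries' trend over transcript length as a covariate, which is 1 value per library over all genes. The part of library preparation in the Bc1 difference was not tested.

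Ccnd1 was lower in HT, with little overlap. Under vehicle its lowest, median and highest values were 1062, 1135 and 1294 in HT and 1409, 1905 and 2102 in WT. Under fluoxetine they were 683.9, 890.5 and 1095 in HT and 1452, 1684 and 1857 in WT. Under lithium they were 1044, 1294 and 1483 in HT and 1623, 1969 and 2583 in WT. Within each arm every HT library was below every WT library. Genes with no overlap between the genotypes were rare in each arm, 0.054% of those tested under vehicle, 0.036% under fluoxetine and 0.054% under lithium, but this separation is what the gene was chosen on. Across arms, 2 HT and 2 WT libraries fell in the shared range. The HT mean was 61.1% of the WT mean under vehicle, 54.4% under fluoxetine and 62.7% under lithium, and the log2 differences were -0.70 ± 0.07, -0.88 ± 0.07 and -0.68 ± 0.07 (SE). These tissue values do not tell fewer cells of a type from less RNA per cell, here or for any other gene.

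LTO1, which encodes a factor for iron-sulphur protein and ribosome assembly and overlaps the 3′ part of Ccnd1 on the other strand, differed in the opposite direction. It ran from 500.4 to 887 in HT and from 335 to 609 in WT, and its log2 difference over all treatments was 0.34 ± 0.06 (SE). It was the 1 of the 19 tested neighbours not selected that passed an adjusted p of 0.05 in limma over all treatments, where 3.74% of all genes did. Its values of both genotypes shared a range that held part of each group.

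**Figure D2:**
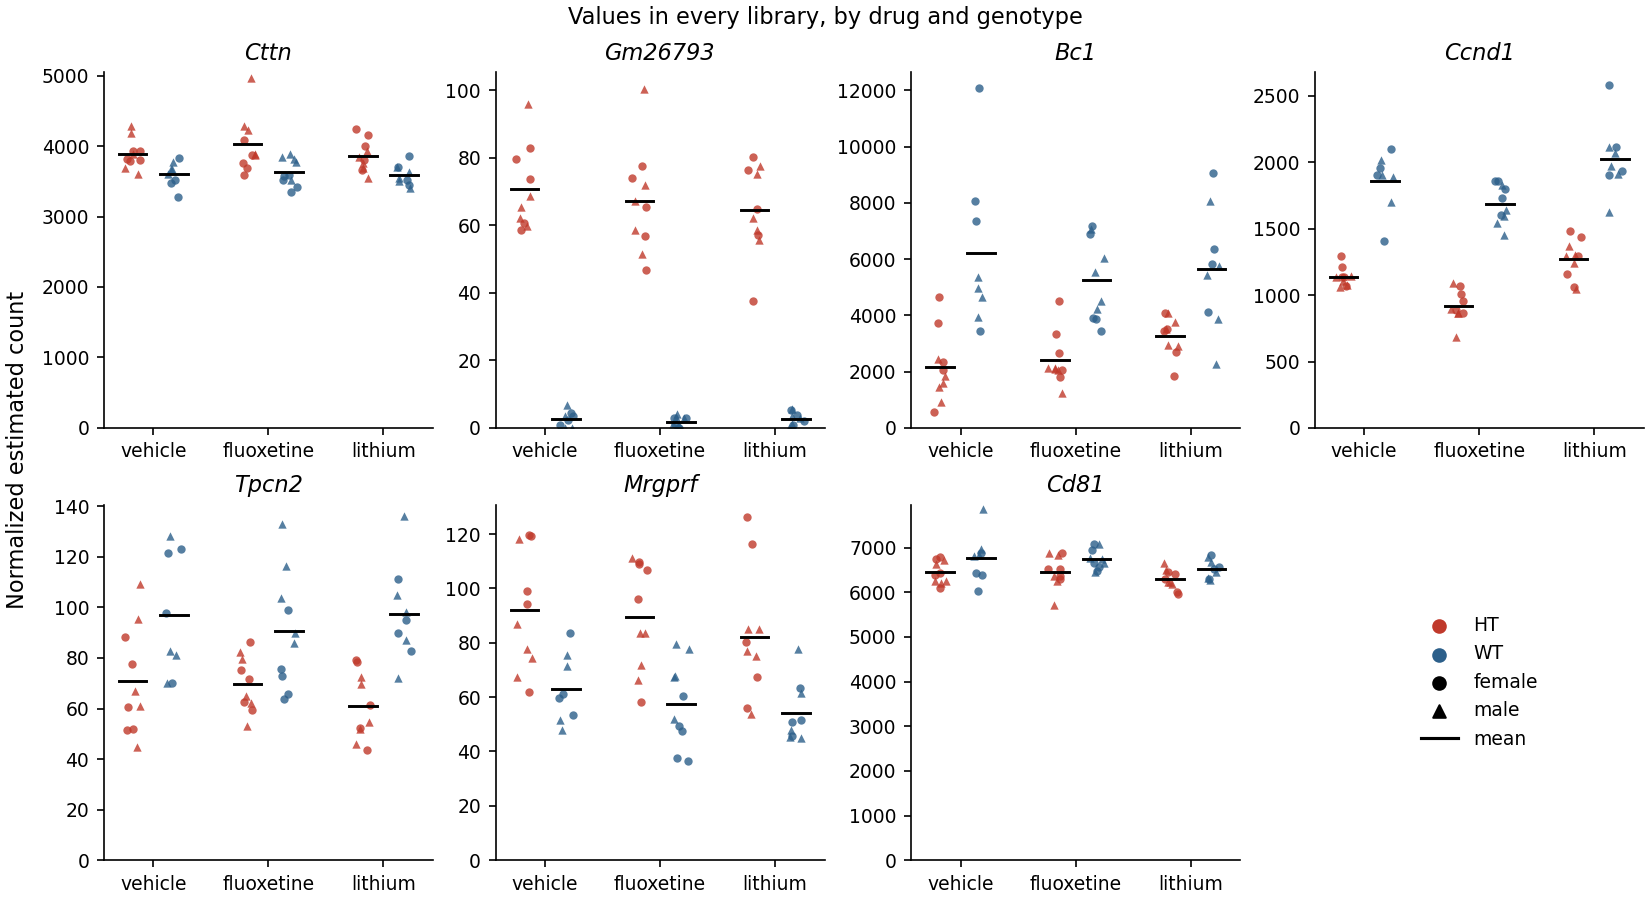
Normalized estimated counts (vertical axes from 0) of the 7 genes in each library, by drug (horizontal axis), genotype (red, HT; blue, WT) and sex (circles, female; triangles, male), with bars at the mean of each genotype and drug. Gm26793 separates the genotypes in all 57 libraries, Ccnd1 separates them within each drug, and the ranges of the other 5 genes overlap within each drug.

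Cttn, the gene next to Shank2, was slightly higher in HT. Its lowest, median and highest values over all arms were 3549, 3868 and 4963 in HT (n = 30) and 3275, 3592 and 3888 in WT (n = 27). The mean was 108.8% of WT, and 13 of the 30 HT libraries lay above all WT libraries. The log2 differences were 0.11, 0.14 and 0.10 under vehicle, fluoxetine and lithium (SE 0.04 in each). Cttn varied little within groups: its SD was 0.08 on the log2 scale, against a median of 0.11 for genes of like level.

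Tpcn2 was lower in HT. Under vehicle its lowest, median and highest values were 44.7, 63.9 and 109.3 in HT and 70.2, 90.2 and 128 in WT. Under fluoxetine they were 52.9, 68.3 and 86.5 in HT and 63.9, 87.9 and 133 in WT. Under lithium they were 43.5, 58.1 and 79.0 in HT and 72.2, 94.96 and 136 in WT. The ranges overlapped in each arm, least under lithium, where 7 of 10 HT libraries were below all WT libraries. The log2 differences were -0.46 ± 0.15, -0.35 ± 0.14 and -0.67 ± 0.15 (SE). The gene model 1810010D01Rik lies inside the Tpcn2 locus on the same strand and shares no exon base with it. It was also too low for the fit and was chosen after its values were seen: 24 of 30 HT libraries were listed at 0 with a highest value of 2.26, while WT libraries ran from 0.670 to 10.96.

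Mrgprf, the next gene beyond Tpcn2, was higher in HT. Under vehicle its lowest, median and highest values were 61.8, 90.7 and 119.8 in HT and 47.9, 60.4 and 83.8 in WT. Under fluoxetine they were 58.2, 89.8 and 111 in HT and 36.4, 56.3 and 79.6 in WT. Under lithium they were 53.8, 78.6 and 126 in HT and 45.1, 50.9 and 77.6 in WT. The ranges overlapped in each arm, and 15 of the 30 HT libraries were above all WT libraries. The ratio of the means was 1.46 under vehicle, 1.55 under fluoxetine and 1.51 under lithium, and the log2 differences were 0.52 ± 0.15, 0.64 ± 0.14 and 0.57 ± 0.15 (SE).

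Within groups, Mrgprf varied most like Ogn (r = 0.73), Aldh1a2 (0.72) and Hcar1 (0.72) over the 57 libraries. Ogn, an extracellular matrix proteoglycan, is among the 8 leptomeningeal fibroblast markers, and Aldh1a2, a retinoic acid synthesis enzyme, is also known from the meninges. The summed level of those 8 markers ran from 4482 to 8554 in HT (median 6498) and from 4491 to 9712 in WT (median 6825), and none was called between the genotypes (1 of 8 at an unadjusted p under 0.05, against 18.9% of all genes). Their median log2 difference was -0.11. The part of these markers in the Mrgprf difference was not tested.

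Cd81, the only one of the 7 genes on the centromeric side, was slightly lower in HT. Its lowest, median and highest values over all arms were 5707, 6380 and 6878 in HT and 6019, 6663 and 7857 in WT. The HT mean was 95.8% of the WT mean, and 27 of the 30 HT libraries lay inside the WT range. The log2 differences were -0.07, -0.06 and -0.05 under vehicle, fluoxetine and lithium (SE 0.03 in each). Its SD within groups was 0.07, as large as these differences. Its absolute difference over all treatments ranked at place 6838 of the 16659 genes. The call over all treatments was kept in 26 of 67 alternative settings, the fewest of the 7 genes.

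Of the 7 genes, 6 had the same sign of difference in females and males under each of the 3 treatments, which is 6 of 6 combinations each. The genes were chosen on these genotype differences, so the agreement of signs is no result about them. Cd81 was lower in HT in 5 of 6. The span over the 6 combinations was -0.89 to -0.63 for Ccnd1 and -1.69 to -0.46 for Bc1. It was 0.26 to 1.02 for Mrgprf and -0.74 to -0.08 for Tpcn2.

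**Figure D3:**
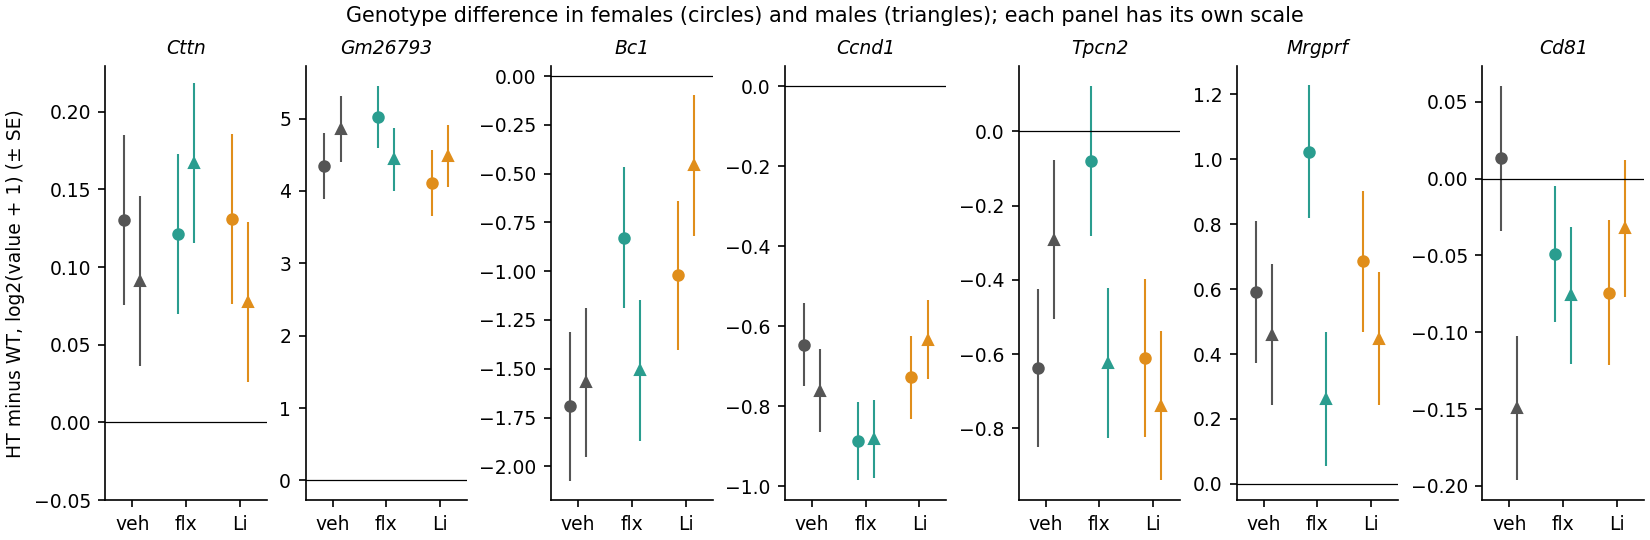
Difference between HT and WT on the log2(value + 1) scale (vertical axes, ± SE, a separate scale for each gene) under vehicle (veh), fluoxetine (flx) and lithium (Li), for females (circles) and males (triangles). In each panel all points lie on 1 side of 0 except for Cd81, which was 0.01 in vehicle females.

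By the call used for all genes (limma, Benjamini-Hochberg adjusted p under 0.05), 3 of the 7 genes passed under vehicle, 4 under fluoxetine, 3 under lithium and 7 over all treatments. The shares of all genes called in the same comparisons were 0.762%, 0.222%, 0.114% and 3.74%. Since the genes were chosen on these comparisons, these counts are no result about them. The same holds for their median absolute log2 difference over all treatments, which was 0.58, against 0.05 for all genes.

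The setting is given by all genes around Shank2, selected or not. Of the 64 other genes annotated within 1 Mb, 26 passed the minimum mean of 10, and 38 did not, of which 12 were at 0 in every library. All 7 genes described passed. Over all treatments 8 of the 26 tested genes were called (30.8%, against 3.74% of all genes), with a median absolute log2 difference of 0.12. Of these 8, 7 are the genes chosen on this difference. Among the 19 tested genes that were not selected, 1 was called (LTO1), and their median absolute log2 difference was 0.04. The values of the 19 follow in part from the choice, which took the 7 out. On the centromeric side, the last tested gene inside the limit of 1 Mb was R74862 at 948 kb (0.01), and the first outside was Th at 1071 kb (-0.35 ± 0.31, SE), the enzyme of dopamine synthesis. No tested gene lay beyond 1 Mb on the telomeric side.

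Farther along chromosome 7, calls over all treatments were 1 of 11 genes at 1 to 2 Mb, 5 of 63 at 2 to 5 Mb (7.94%), 0 of 15 at 5 to 10 Mb and 2 of 151 at 10 to 20 Mb (1.32%). Beyond 20 Mb the share was 3.56% of 1038 genes, and on other chromosomes 3.71% of 15354. The called genes at 1 to 5 Mb were Ctsd (-0.10), a lysosomal protease, Pnpla2 (-0.19), a lipase, B4galnt4 (0.11), Cfap46 (0.78), a cilium protein, Lrrc27 (0.58) and Dpysl4 (0.16). Htra1 (-0.19) and Trim72 (-0.42) were the called genes at 10 to 20 Mb. Counted by distance between gene midpoints, 5 of 21 genes within 1 Mb were called, because Tpcn2, Mrgprf and Cd81 then fell beyond it.

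The drug comparisons did not themselves enter the choice of genes, but they use libraries that did. A change of the genotype difference with a drug is taken between HT-to-WT differences that the choice used. The p-values of both are therefore not independent of the choice. Within a genotype, the fluoxetine and lithium comparisons share their vehicle libraries. In HT mice, Ccnd1 fell with fluoxetine: the lowest, median and highest values were 683.9, 890.5 and 1095 under fluoxetine against 1062, 1135 and 1294 under vehicle. Only 2 of the 10 fluoxetine libraries reached the vehicle range. The log2 difference was -0.31 ± 0.07 (SE), with an adjusted p of 0.0253 in limma. It was the 1 call among the 7 genes in this comparison, in which 0.33% of all genes were called.

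The call depended on which libraries were used, and its adjusted p in limma ran from 0.0120 to 0.0653 over the alternatives. It rose to 0.0653 without HT fluoxetine male 3, to 0.0588 without HT fluoxetine female 4, to 0.0593 without HT vehicle female 1 and to 0.0576 without HT vehicle female 3, while the log2 difference stayed between -0.36 and -0.27 over all libraries left out in turn. HT fluoxetine male 3, one of the 2 libraries that stood apart over all genes, held the lowest Ccnd1 value (683.9), the lowest Cd81 value (5707) and the highest Cttn value (4963) of the HT libraries. In WT mice the fluoxetine difference of Ccnd1 was -0.13 ± 0.07 (SE; adjusted p in limma = 0.384). The difference between the genotypes in the fluoxetine effect was -0.18 ± 0.10 (SE), with a 95% interval of -0.38 to 0.02 and an adjusted p of 0.695 in limma. Without WT vehicle female 1 it was -0.12.

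Several marker lists were looked at in the same comparison. The 8 olfactory bulb markers were Eomes, Th, Cdhr1, Tbx21, Calb2, Sp8, Doc2g and Slc6a3. Their summed level ran from 1219 to 6152 (median 1710) in the HT vehicle libraries and from 1527 to 11865 (median 4962) in the HT fluoxetine libraries. All 8 were higher on average under fluoxetine, with a median log2 difference of 0.97, none was called, and none was at 0 in any library. The 10 striatal markers had a median of 0.48, with none called. All 8 microglia markers were lower under fluoxetine, with a median of -0.16, and Gpr34, a microglial receptor named after its value was seen, was called (-0.47 ± 0.11, SE). The microglia sum ran from 6133 to 11592 under fluoxetine (median 10761) and from 8522 to 12317 under vehicle (median 11353). The part of these lists in the Ccnd1 result was not tested.

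Lithium gave no call among the 7 genes in either genotype (limma), while 0.888% of all genes were called in HT and 8.53% in WT. At an unadjusted p under 0.05 there were 2 of 7 in HT (Bc1 and Ccnd1), against 12.8% of all genes, and 0 of 7 in WT, against 23.8%. Bc1 was higher under lithium than under vehicle in HT, 1859 to 4080 (median 3468) against 582 to 4669 (median 1959). This difference was 0.78 ± 0.26 (SE) on the log2 scale with an adjusted p of 0.142 in limma, and the vehicle libraries spanned the whole lithium range. In WT the Bc1 difference was -0.11 ± 0.28 (SE; adjusted p in limma = 0.860). The change of the genotype difference with lithium was 0.89 ± 0.38 (SE), with a 95% interval of 0.15 to 1.63 before adjustment and an adjusted p of 0.627 in limma.

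Ccnd1 differed by 0.15 ± 0.07 (SE; adjusted p in limma = 0.331) with lithium in HT and by 0.13 ± 0.08 (adjusted p in limma = 0.299) in WT. The WT value was 0.067 without WT vehicle female 1. Tpcn2, Mrgprf, Cttn, Cd81 and Gm26793 had lithium differences from -0.21 to 0.16 over both genotypes. None of the 7 genes passed with fluoxetine in WT, where 0.84% of all genes did and 0 of 7 had an unadjusted p under 0.05, against 15.2% of all genes. Gm26793 passed the minimum mean through its HT values alone, so its drug comparisons in WT rest on values of 0 to 6.66. The widest 95% intervals were those of Gm26793 (-0.85 to 0.42 for fluoxetine in WT) and Bc1 (-0.71 to 0.35). Those of Cttn (-0.07 to 0.09) and Cd81 (-0.07 to 0.06) were narrow.

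**Figure D4:**
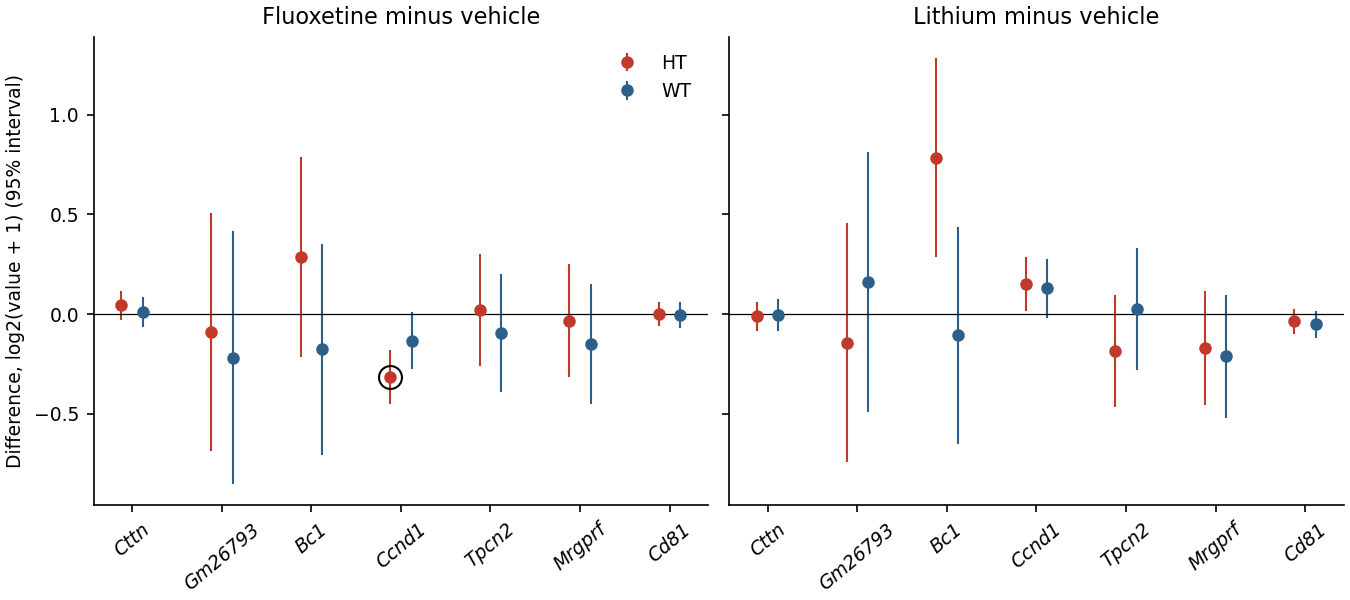
Difference between drug and vehicle on the log2(value + 1) scale (vertical axis, points with 95% intervals) for the 7 genes in HT (red) and WT (blue), with a black ring where the adjusted p in limma was under 0.05. The one ring is on Ccnd1 with fluoxetine in HT (-0.31), and the intervals of Bc1 and Gm26793 are the widest.

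No gene of the 16659 tested, and so none of the 7, was called for a change of the genotype difference with fluoxetine (0%) or with lithium (0%) in limma. At an unadjusted p under 0.05 there were 1285 and 1218 genes in all (7.71% and 7.31%), with 0 and 1 of the 7 (Bc1 with lithium). Among the neighbours that were not selected, Nap1l4, a histone chaperone 453 kb on the centromeric side, fell with lithium in both genotypes. The fall was 0.14 on the log2 scale in HT (adjusted p in limma = 0.0178) and 0.10 in WT (adjusted p in limma = 0.0450). Nap1l4 was named after its values were seen, as the 1 call among these 19 neighbours in each genotype. Of all genes, 0.888% were called with lithium in HT and 8.53% in WT.

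Sex gave no call among the 7 genes (limma; 0.108% of all genes were called, and 0 of 7 had an unadjusted p under 0.05, against 5.36% of all genes). The largest difference was that of Bc1, -0.27 ± 0.15 (SE), males lower. Whether the genotype difference itself differed between the sexes passed for none of the 7 genes in limma, where 0.588% of all genes did. Mrgprf was the 1 of 7 with an unadjusted p under 0.05, a share no higher than the 18.7% of all genes. In females it ran from 56.1 to 126 (median 99.2) in HT and from 36.4 to 83.8 (median 51.8) in WT. In males it ran from 53.8 to 118 (median 77.9) in HT and from 45.1 to 79.6 (median 64.4) in WT. The difference between males and females in the genotype effect was -0.38 ± 0.17 (SE; adjusted p in limma = 0.227).

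Inside the groups, pairs of the 7 genes varied in the same and in opposite directions. Over the 21 pairs the mean Pearson r of the deviations from group means was -0.01 across 57 libraries. The highest was between the adjacent Tpcn2 and Mrgprf (0.43, with 0.45 within HT and 0.39 within WT) and the lowest between Gm26793 and Cd81 (-0.35). Ccnd1 and Bc1, which lie in the same cluster, had an r of 0.32. Shank2 itself had an r of 0.42 with Ccnd1, 0.36 with Gm26793 and -0.46 with Cd81, and the last was -0.13 within HT and -0.73 within WT. WT vehicle male 2, which stood apart over all genes, held the lowest Shank2 value (6762) and the highest Cd81 value (7857) of the WT libraries. The r without that library was not computed. Libraries share tissue composition and preparation, so all these correlations are descriptions.

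**Figure D5:**
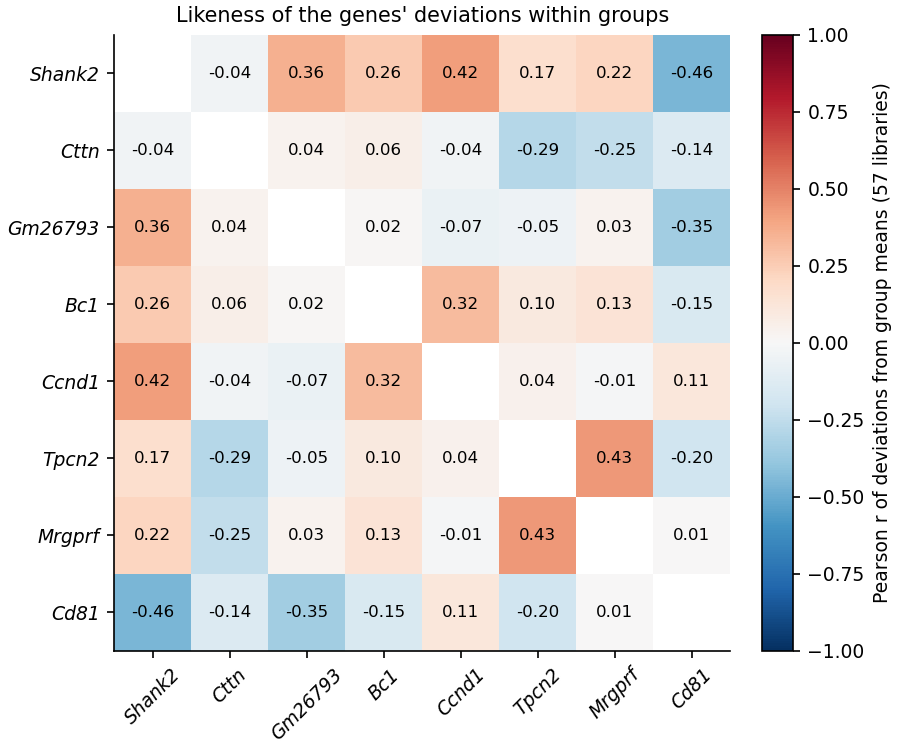
Pearson r of the deviations of 57 libraries from their group means on the log2(value + 1) scale, for each pair of Shank2 and the 7 genes (rows and columns; red, positive; blue, negative). Values between the 7 genes lie between -0.35 and 0.43.

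Of the genes most like each of the others in these deviations, all but Plekhb1 lie on other chromosomes. Ccnd1 was most like Fmnl1 (r = 0.73), an actin-nucleating formin, Zfp365 (0.68) and D17Wsu92e (0.67). Cttn was most like Pitpnb (0.74), a lipid transfer protein, Cdip1 (0.71) and Galnt16 (0.69). Tpcn2 was most like Tbce (0.67), a tubulin chaperone, Sparc (0.63) and Gm3764 (0.63). Cd81 was most like Plekhb1 (0.77), Arl2 (0.76) and Sept4 (0.76). Gm26793 had the weakest partners, Boc (0.54), Gm13270 (0.53) and Zfp968 (0.50).

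Genes that act with the 7 were compared between the genotypes over all treatments, where 3.74% of all genes passed in limma and 18.9% had an unadjusted p under 0.05. Of 24 genes of the cyclin D pathway (such as Ccnd2, Cdk4, Cdkn1b, Rb1 and Mki67) none passed, with a median log2 difference of 0.00 and 5 of 24 at an unadjusted p under 0.05. Ccnd2, the related D cyclin, differed by 0.09 ± 0.04 (SE; adjusted p in limma = 0.182), and the cell cycle inhibitors Cdkn2c and Cdkn1a by -0.17 and -0.16 (adjusted p in limma = 0.0797 and 0.134). None of the 7 markers of proliferating progenitors passed, with 0 of 7 at an unadjusted p under 0.05. Of 25 genes of cortactin and branched actin, 1 rose (Dbn1, the spine protein drebrin, 0.08 ± 0.02, SE) and none fell, with 5 of 25 at an unadjusted p under 0.05.

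None of the 14 tested genes for proteins of the Bc1 ribonucleoprotein and dendritic translation passed, and 0 of 14 had an unadjusted p under 0.05. Their log2 differences ran from -0.04 to 0.05. None of 11 endolysosomal channel genes passed (2 of 11 unadjusted), with the lysosomal membrane protein Lamp1 at -0.05 ± 0.02 (SE). Of 15 tetraspanins and partners of Cd81, 1 fell (Tspan7, -0.10 ± 0.02, SE) and none rose, with a median of -0.08 against 0.00 for all genes and 7 of 15 at an unadjusted p under 0.05. None of 4 tested FGF genes and receptors passed (2 of 4 unadjusted), with Fgfr1 at -0.10 and Fgf3, a neighbour at 414 kb, at 0.57 ± 0.22 (SE; adjusted p in limma = 0.129). None of 13 genes of the imprinted domain on the centromeric side passed (2 of 13 unadjusted), nor did either of the 2 tested Mas-related receptors (0 of 2 unadjusted), Mrgpre (0.04) and Mas1 (0.02).

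Markers of other cell types differed between the genotypes in part. All 8 oligodendrocyte markers were lower in HT on average, with a median log2 difference of -0.21 and sums of 57796 to 161076 in HT against 72728 to 193022 in WT. None was called (7 of 8 at an unadjusted p under 0.05, against 18.9% of all genes). Single genes were called lower in 4 other lists, namely Ntsr2 of astrocytes (-0.16), C1qb of microglia (-0.16), Ly6c1 of endothelium (-0.24) and Clic6 of choroid plexus (-0.96). In this order the medians of the lists were -0.07, -0.07, -0.06 and -0.19, and their highest values -0.03, 0.01, 0.13 and 0.09. At an unadjusted p under 0.05 there were 3 of 8, 3 of 8, 3 of 8 and 1 of 5. Clic6 had a mean of 19.6 ± 14.2 (SD) in HT and 45.6 ± 48.6 in WT. Of the choroid plexus markers, Ttr was listed at 0 in 4 libraries, Folr1 in 2 and Otx2 in 1. Olfactory bulb markers had a median of -0.27 and striatal projection neuron markers of -0.25, with none called in either list (0 of 8 and 1 of 10 at an unadjusted p under 0.05). By arm, the olfactory median was -0.65 under vehicle, 0.28 under fluoxetine and -0.48 under lithium, and the striatal median was -0.65, -0.05 and -0.10 in the same order. Their sums overlapped between the genotypes, from 908.4 to 13015 in HT and from 1016 to 20272 in WT for the olfactory bulb, and from 9399 to 24718 and from 9308 to 37058 for the striatum. The part of these differences in those of the 7 genes was not tested.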

How the data were processed

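The members, the functional lists and the marker lists were chosen with earlier results of these data known. One table of 51456 Ensembl gene identifiers in 57 libraries was used, and 51285 identifiers had a GENCODE vM21 gene, which gave symbols and GRCm38 positions. The deposited values are a signal that is never negative, estimated counts after normalization. The authors used Salmon 0.11.2, R 3.6.0, DESeq2 1.19.11 and GRCm38, per the submitters' processing notes. No source used here gives the annotation, the filters or the strand setting, and per the labels' protocols the libraries came from a stranded mRNA kit. Between 4.52% and 33.8% of low values in a library were whole multiples (within 0.01) of its commonest low value, so whole reads were not recovered and no count test was run.

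The 16659 genes whose mean was 10 or more were fitted with limma 3.58.1 (trend and robust, R 4.3.3) on log2(value + 1), with 12 group means of genotype, drug and sex, and p-values were adjusted by Benjamini-Hochberg over all genes. Effects over both sexes are the mean of the female and male effects. The fit was tested on simulated data. Alternatives covered the pseudocount, the filter, the scaling, the moderation, the groups fitted, the replicate block, a transcript length trend and each library left out. Named beside the members are Shank2, tested genes within 1 Mb, called genes at 1 to 20 Mb, the 3 genes most like each member, and up to 4 genes of each list by smallest p between genotypes.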

Additional observations from a re-analysis of the deposited data

Results flagged for a closer look

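Of 84 sets of values (7 genes in 12 groups of 4 or 5 libraries), 4 held a library farther from the rest than Dixon's 95% limit, where about 1 in 20, or 4.2, would be by chance. In HT vehicle male 2, Gm26793 was 95.9 against 59.9 to 68.6 in the other 4 libraries of its group. In HT fluoxetine male 1, Bc1 was 1249 against 2062 to 2118. In HT fluoxetine female 3, Mrgprf was 58.2 against 96.0 to 109.8. In WT vehicle male 2, the library that stood apart over all genes, Cd81 was 7857 against 6822 to 6974; without it the vehicle difference of Cd81 was -0.04 on the log2 scale rather than -0.07.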

How the results depend on the processing

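Counts of the 7 genes called in limma depended in part on the setting. Under fluoxetine 4 were called between the genotypes, 2 with no filter on low values and 2 to 4 with 1 library left out. The single call of fluoxetine in HT, Ccnd1, became 0 to 1 with 1 library left out. The counts for vehicle (3) and lithium (3) stayed within 2 to 4 and 2 to 3, that over all treatments (7) within 6 to 7, and those of the other comparisons at 0, under every alternative run. Measured between midpoints, 5 rather than 8 tested genes within 1 Mb were called. The Bc1 difference of lithium in WT (-0.11) turned to 0.022 without WT lithium male 5 and to 0.023 without WT vehicle female 2 and ran from -0.28 to 0.023 over the left-out libraries, with no call. Replicate numbers did not pair the libraries (mean r of deviations -0.01 for the same number, 0.00 for other numbers; 9 of 57 libraries correlated best with their own number). With the replicate block, 3, 4, 3 and 6 of the 7 genes were called under vehicle, fluoxetine, lithium and over all treatments, and 1 for fluoxetine in HT.

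Counts over all genes depended more on the setting. Calls between genotypes under vehicle (127) were 8 to 141 over settings and 34 to 394 with 1 library left out, those under fluoxetine (37) 13 to 48 and 8 to 48, and those under lithium (19) 17 to 31 and 7 to 36. Fluoxetine calls were 23 to 203 and 19 to 203 in HT (55) and 0 to 166 and 5 to 562 in WT (140). Lithium calls were 1 to 270 and 56 to 270 in HT (148) and 62 to 1511 and 796 to 1971 in WT (1421). The settings included a fit without WT vehicle male 2. That fit gave the highest count over settings between genotypes under fluoxetine (48). It also gave the highest in HT for fluoxetine (203) and for lithium (270). The genotype difference between the sexes (98) gave 0 to 167 and 0 to 727. The causes were not tested. The number of reads behind low genes such as Gm26793 in WT is unknown, which limits their fold changes. A fit of only the groups compared was not run for the comparisons over all treatments and between the sexes, which use every group.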
